A study of Mus musculus with 9 samples.

Results

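Wnt ligands, their receptors and the secreted proteins that modulate them were followed in the mouse colon by RNA-seq. The 44 genes were taken by symbol, as the 19 Wnt ligands, the 10 Frizzled receptors, the co-receptors Lrp5 and Lrp6, the 4 R-spondins, the 5 secreted Frizzled-related proteins (SFRPs, with Frzb) and the 4 Dickkopf genes. All 44 were among the 21498 gene symbols of the files, each on a row of its own. Of these, 36 had at least 0.1 FPKM in at least 3 of the 9 samples and were tested, together with 15278 genes in all. Wnt3, Wnt7a and Wnt7b reached that level only in the 3 IgG samples, so a difference of IgG from the other groups was built into their passing, and their tests are given as descriptions. The ligands Wnt3a and Wnt8a and the inhibitor Dkk1 were listed at 0 in all 9 samples, and Wnt1, Wnt8b, Wnt9b, Rspo4 and Dkk4 were above 0 in some samples but did not pass the filter.

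The samples were colorectal tissue from male ICR mice, an outbred strain, aged 5 weeks at the start, with 3 mice in each group. Control mice received neither AOM/DSS nor antibody. The IgG and anti-A9 mice received 10 mg/kg of azoxymethane (AOM), a colon carcinogen, followed by 3 cycles of dextran sulfate sodium (DSS) in the drinking water (2% for 7 days, 1.5% for 5 days and 1.5% for 5 days), which injures the colon epithelium. During the DSS cycles they received 1.5 mg/kg of a negative control IgG antibody or of a neutralizing antibody against S100a9, a protein of neutrophils and other myeloid cells, and the AOM/DSS samples are labelled as the end of week 18. The Control samples are also listed at week 18. The labels give normal mucosa for Control and adenocarcinoma for both AOM/DSS groups, whereas the study's text describes the anti-A9 samples as mucosa. Tumor content and antibody treatment therefore cannot be told apart in the comparison of anti-A9 with IgG, and in whole tissue neither can fewer cells of a type and less RNA per cell.

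Wnt proteins are lipid-bearing ligands that bind Frizzled receptors together with Lrp5 or Lrp6. In the β-catenin branch this stops the destruction of β-catenin, which then acts with TCF/LEF factors on target genes, and in the colon this signal from crypt cells and the stroma beneath them maintains the stem cells. R-spondins strengthen the signal by keeping Frizzled receptors on the surface, SFRPs bind the ligands outside the cell, and Dickkopf proteins such as Dkk2 and Dkk4 bind the co-receptors. Loss of Apc or stabilization of β-catenin is a common early step in colorectal tumors, including those induced by AOM.

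The 8 epithelial markers were all detected, with sums of 4194 to 5419 FPKM in Control, 3713 to 5226 in IgG and 3700 to 4726 in anti-A9. Of the 8, Krt18 was higher in IgG than in Control (log2 difference 1.19, adjusted p = 0.026) and lower in anti-A9 than in IgG (-1.42, adjusted p = 0.013), the former call being lost without Control replicate 1 or 2 or IgG replicate 1 or 3 (adjusted p up to 0.080) and the latter without anti-A9 replicate 2 (adjusted p = 0.051). Within the IgG group, replicate 1 stood apart from replicates 2 and 3 in several families below, and its 8 fibroblast markers summed to 653 FPKM, against 2181 and 1604 in the others. Most of that gap lay in the collagen genes Col1a1, Col1a2 and Col3a1, and Pdgfra was highest of the group in replicate 1 (14.6, 9.96 and 14.0 FPKM). Where leaving out a library changed the call of a member or moved a called difference by over 1.5 times in fold, the values without it are given. Leaving out a library outside the 2 groups compared does not move the difference. It can change a call only through the shared spread, the degrees of freedom and the adjustment over all genes. FPKM, fragments scaled by transcript length and depth, was compared as log2(FPKM + 0.1), so that folds of low genes come out smaller than in FPKM. Adjusted p-values are from limma with Benjamini-Hochberg adjustment over the 15278 genes.

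The ligands that made up most of the Wnt transcripts differed between IgG and the other groups. The 19 ligands summed to 14.7, 15.0 and 13.2 FPKM in the Control samples, to 259, 67.0 and 71.1 in the IgG samples and to 24.2, 19.4 and 19.3 in the anti-A9 samples. Wnt6 and Wnt10a together held 7.63%, 7.07% and 18.2% of this sum in Control, 86.6%, 68.0% and 71.1% in IgG and 15.0%, 6.55% and 8.38% in anti-A9. Every IgG sample lay far above the other 6 in this share. Wnt2b, Wnt4, Wnt5a and Wnt5b, the ligands with the largest mean shares in Control, held 85.0%, 78.9% and 66.6% there, 9.61%, 25.8% and 20.5% in IgG and 68.0%, 80.2% and 81.5% in anti-A9. In Control replicate 3, however, Wnt6 held 15.2%, more than Wnt5a (14.6%) or Wnt2b (10.4%).

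**Figure D1:**
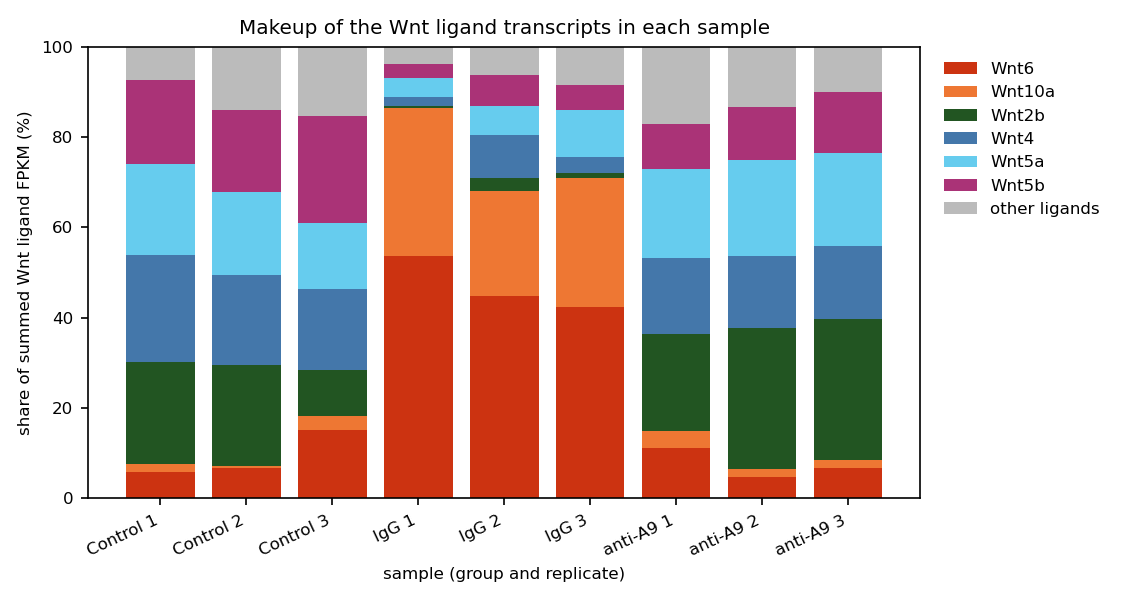
Share of the summed Wnt ligand FPKM (%) held by Wnt6, Wnt10a, Wnt2b, Wnt4, Wnt5a and Wnt5b and by the other ligands together in each of the 9 samples, as stacked bars. Wnt6 and Wnt10a together reach 68.0% to 86.6% in the IgG samples and no more than 18.2% in the others.

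Wnt6, a ligand of the β-catenin branch, was at 0.853, 1.00 and 2.01 FPKM in Control, at 139, 30.0 and 30.2 FPKM in IgG and at 2.72, 0.933 and 1.30 FPKM in anti-A9. The groups Control and anti-A9 overlapped, and all IgG samples were higher, with replicate 1 the highest. Wnt6 rose by a log2 difference of 5.27 (SE 0.63, adjusted p = 0.0021) in IgG against Control, 38.5-fold on the FPKM + 0.1 scale, and was lower in anti-A9 than in IgG (log2 difference -4.97, SE 0.63, adjusted p = 0.0043). Between anti-A9 and Control its log2 difference was 0.30, with a 95% interval of -1.14 to 1.73, which does not show equal levels.

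Wnt10a, whose gene lies beside Wnt6, followed the same order. Its values were 0.267, 0.0561 and 0.395 FPKM in Control, 85.1, 15.6 and 20.4 FPKM in IgG and 0.903, 0.339 and 0.313 FPKM in anti-A9. It had the largest difference of the 36 members, a log2 difference of 6.63 (SE 0.69, adjusted p = 0.0012) in IgG against Control and of -5.73 (SE 0.69, adjusted p = 0.0035) in anti-A9 against IgG. Without IgG replicate 1 the log2 differences in IgG against Control were 4.53 for Wnt6 and 5.88 for Wnt10a, with adjusted p of 0.0020 and 0.0016. They were then -4.24 (adjusted p = 0.0038) and -4.98 (adjusted p = 0.0039) in anti-A9 against IgG. The ratio of Wnt6 to Wnt10a in FPKM was 1.63, 1.93 and 1.48 in the IgG samples and ran from 2.75 to 17.8 in the other 6 samples, where both were low.

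Wnt3, the ligand that Paneth cells supply to stem cells in the small intestine, was low throughout. It was listed at 0.0380, 0.0305 and 0 FPKM in Control, at 0.708, 0.352 and 0.388 FPKM in IgG and at 0.0904, 0.0458 and 0.0247 FPKM in anti-A9. All IgG samples were above the other 6, and the log2 differences were 2.21 (SE 0.33, adjusted p = 0.0051) in IgG against Control and -1.90 (SE 0.33, adjusted p = 0.010) in anti-A9 against IgG. With no filter on low values, which removes the selection through IgG, the adjusted p of these differences was 0.0038 and 0.0081.

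Wnt7b, a ligand of epithelia and developing vessels, was listed at 0, 0 and 0.0122 FPKM in Control. It reached 1.19, 0.300 and 0.833 FPKM in IgG and 0.0266, 0.00901 and 0.0198 FPKM in anti-A9. Its log2 differences were 2.92 (SE 0.41, adjusted p = 0.0043) in IgG against Control and -2.73 (SE 0.41, adjusted p = 0.0069) in anti-A9 against IgG, with an adjusted p of 0.0044 and 0.0073 with no filter. Wnt7a, its close relative, was at 0.0133, 0 and 0 FPKM in Control, at 4.63, 0.151 and 0.475 FPKM in IgG and at 0.0591, 0 and 0 FPKM in anti-A9. Its spread within IgG was wide, since replicate 1 was well above replicates 2 and 3. The log2 difference of Wnt7a was 3.08 (SE 0.89, adjusted p = 0.058) in IgG against Control, which missed the threshold, and -2.91 (SE 0.89, adjusted p = 0.048) in anti-A9 against IgG. Without IgG replicate 1 these became 1.87 (adjusted p = 0.033) and -1.70 (adjusted p = 0.041), and without IgG replicate 2 they were 3.98 (adjusted p = 0.014) and -3.82 (adjusted p = 0.014). With no filter neither passed (adjusted p = 0.068 and 0.056). The call in anti-A9 against IgG was lost without any of the Control or anti-A9 libraries or IgG replicate 3, with the log2 difference between -3.22 and -2.80.

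Wnt5a and Wnt5b, ligands best known for signaling without β-catenin, were present in every sample. Wnt5a was at 2.95, 2.76 and 1.94 FPKM in Control, at 10.6, 4.30 and 7.40 FPKM in IgG and at 4.80, 4.15 and 3.94 FPKM in anti-A9. The IgG samples and the anti-A9 samples each lay above all Control samples. Wnt5a rose in IgG against Control (log2 difference 1.44, SE 0.32, adjusted p = 0.024), a call that was lost without any of the 3 Control libraries or IgG replicate 3 (1.26 to 1.55, adjusted p = 0.054 to 0.069). Between anti-A9 and IgG it differed by -0.69 (adjusted p = 0.14), by -1.03 (adjusted p = 0.028) without IgG replicate 2 and by -0.39 (adjusted p = 0.34) without IgG replicate 1. Wnt5b was at 2.74, 2.69 and 3.14 FPKM in Control, at 8.17, 4.57 and 3.94 FPKM in IgG and at 2.40, 2.29 and 2.61 FPKM in anti-A9. Its groups did not overlap in any of the 3 comparisons. It was lower in anti-A9 than in IgG (log2 difference -1.09, SE 0.27, adjusted p = 0.026), a call lost without any of the 3 anti-A9 libraries (-1.05 to -1.14, adjusted p = 0.063 to 0.088), and was 0.87 higher in IgG than in Control (adjusted p = 0.069), or 1.07 higher (adjusted p = 0.050, just past the threshold) without IgG replicate 3 and 0.56 (adjusted p = 0.11) without IgG replicate 1.

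Wnt2b, a stromal ligand that can support intestinal stem cells, had the opposite order. It was at 3.30, 3.35 and 1.37 FPKM in Control, at 1.15, 1.99 and 0.741 FPKM in IgG and at 5.20, 6.05 and 6.04 FPKM in anti-A9. Every anti-A9 sample exceeded every Control and IgG sample. Wnt2b was the only ligand higher in anti-A9 than in IgG by the adjusted threshold (log2 difference 2.17, SE 0.41, adjusted p = 0.013, or 0.055 without anti-A9 replicate 2). In IgG against Control it differed by -0.99 (adjusted p = 0.15), by -1.40 (adjusted p = 0.048) without Control replicate 3 and by -0.68 (adjusted p = 0.32) without IgG replicate 3.

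**Figure D2:**
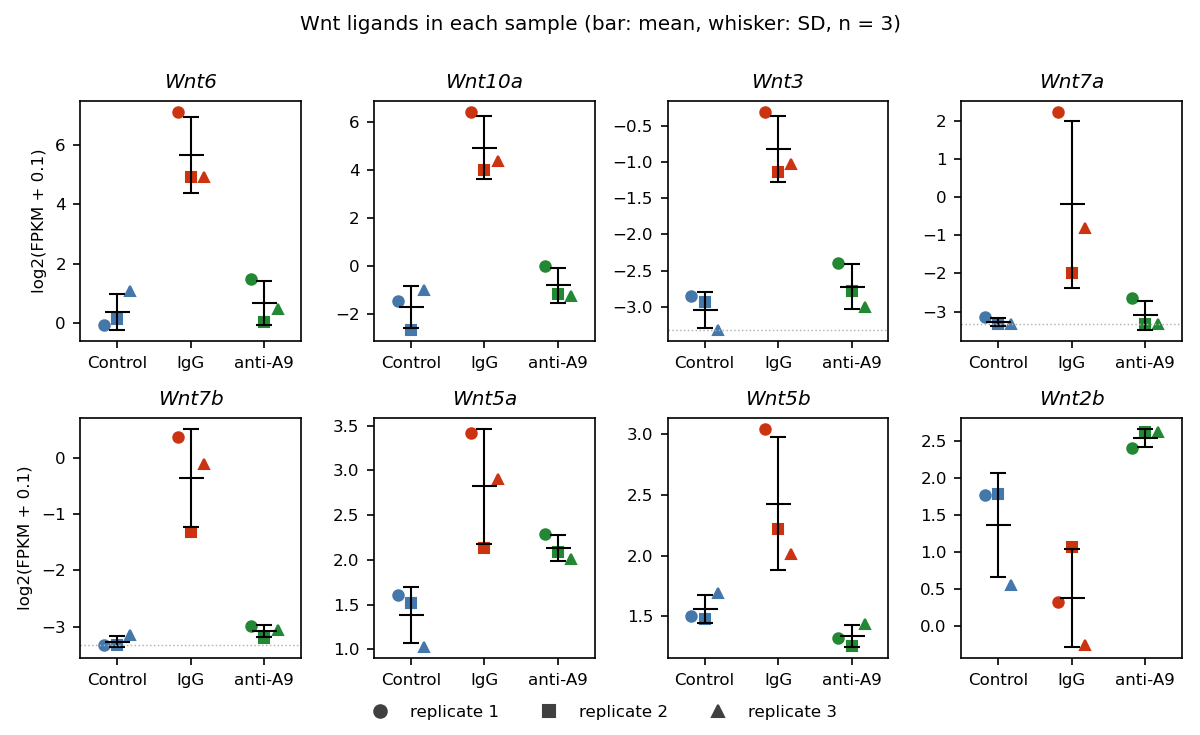
log2(FPKM + 0.1) of 8 Wnt ligands in each sample (points, with a symbol for each replicate number), with the group mean (bar) and SD (whisker, n = 3); the dotted line marks a value listed at 0. The IgG points lie above both other groups for Wnt6, Wnt10a, Wnt3, Wnt7a, Wnt7b and Wnt5b, and the anti-A9 points lie highest for Wnt2b.

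The other 6 ligands tested passed the adjusted threshold in no comparison. Wnt4, which was among the leading ligands of the Control samples, was at 3.48, 3.01 and 2.37 FPKM in Control, 4.96, 6.45 and 2.51 FPKM in IgG and 4.06, 3.10 and 3.14 FPKM in anti-A9, and its groups overlapped. Wnt9a, Wnt10b, Wnt11 and Wnt16 ranged from 0.0198 to 1.41 FPKM over the 9 samples. Wnt2, a stromal ligand, ranged from 0.242 to 0.510 FPKM in Control, 0.666 to 1.55 FPKM in IgG and 0.571 to 1.43 FPKM in anti-A9, so that both AOM/DSS groups lay above Control without overlap. Its log2 difference in IgG against Control was 1.40 (adjusted p = 0.063), 1.73 (adjusted p = 0.038) without IgG replicate 1 and 1.18 (adjusted p = 0.12) without IgG replicate 2. Wnt8b was listed at 0 in the 6 Control and anti-A9 samples and at 0.249, 0.0568 and 0.0405 FPKM in IgG. Wnt9b was also highest in the 3 IgG samples, at 0.0504, 0.0415 and 0.226 FPKM, by a narrow margin over the Control maximum of 0.0405 FPKM.

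Wnt6 (ENSMUSG00000033227.7) occupies chr1:74771892-74785322 and Wnt10a (ENSMUSG00000026167.14) chr1:74791516-74804179, both on the plus strand of GRCm38 in the GENCODE M21 annotation, with 6193 bases between them. Within 250 kb of the pair lay 14 other genes of the files, of which 12 were tested. Among these, Ihh, the hedgehog ligand of the colon epithelium, was higher in IgG than in Control (log2 difference 0.52, adjusted p = 0.049) and none was lower. The log2 differences of the 12 ran from -1.31 (Fev, adjusted p = 0.092) to 0.71 (Stk36, adjusted p = 0.20). The large differences in this stretch were those of Wnt6 and Wnt10a. The other neighboring pairs of ligands within 100 kb were Wnt9b with Wnt3, Wnt10b with Wnt1 and Wnt3a with Wnt9a. In the former pair both ligands were highest in the 3 IgG samples, and in the latter pairs neither ligand was.

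**Figure D3:**
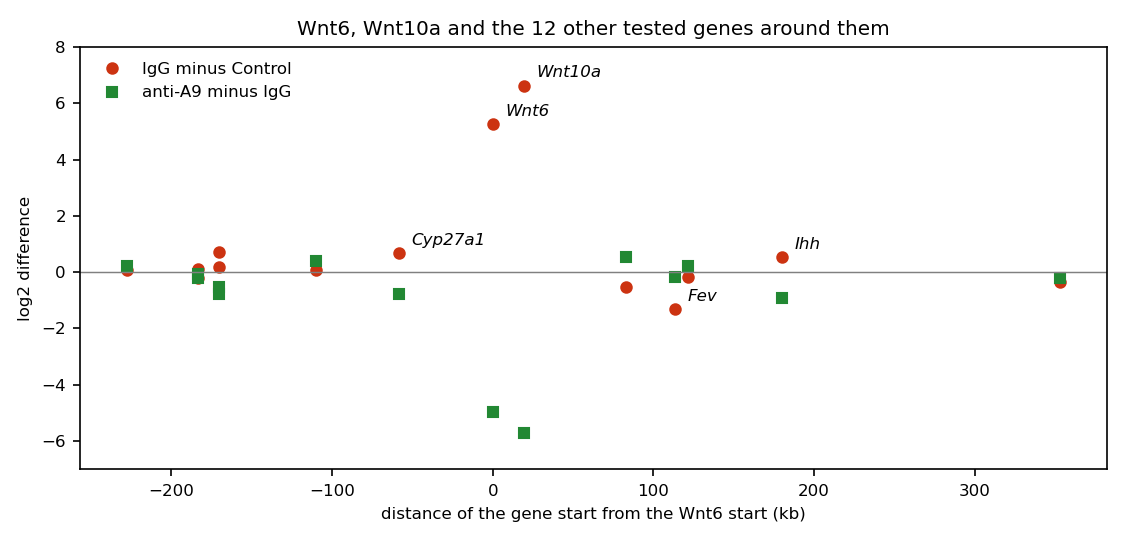
Log2 difference of Wnt6, Wnt10a and the 12 other tested genes within 250 kb of them, against the distance of each gene's start from the start of Wnt6 (kb), for IgG minus Control (circles) and anti-A9 minus IgG (squares). Wnt6 and Wnt10a stand at 5.27 and 6.63 and at -4.97 and -5.73, while the other genes lie between -1.31 and 0.71 in IgG minus Control.

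The 250 bases before the listed start of transcription were read for the 28 members with an entry in the RefSeq promoter table (GRCm38.p6). They were searched on both strands for CTTTGAT and CTTTGTT, which are among the forms of the site that TCF/LEF factors bind, each gene being counted once. Other forms of the site were not searched, so a window without a match may still hold one of them. Of the 28 members, 4 (14.3%) held a match, Dkk1, Fzd7, Wnt11 and Wnt5b, against 9.21% of all 27025 genes with an entry and 6.98% of the 11353 such genes that were tested. Of the 9 members raised in IgG, 5 had an entry (Wnt3, Wnt6, Fzd9, Fzd10 and Dkk2), and none of these 5 windows held CTTTGAT or CTTTGTT on either strand. The listed starts of Fzd1, Fzd7 and Fzd10 did not match the start of a transcript in GENCODE M21, and the Fzd10 window lies within the gene as annotated there. Leaving out these 3, a match was found for 3 of 25 members (12.0%) and for none of the 4 raised members. The windows of Wnt6 and Dkk2, which had large differences, are shown beside that of Wnt5b, which has the match CTTTGAT in capitals, starting 71 bases before the start at 1 of its 3 listed starts. They are from chr1:74771642-74771891 (plus strand), chr3:132085042-132085291 (plus strand) and chr6:119449387-119449636 (minus strand), each written 5′ to 3′. The Wnt6 window is rich in G and C (79.6%), against 55.6% in each of the other two. A match is a description of the letters and not of binding.
Wnt6: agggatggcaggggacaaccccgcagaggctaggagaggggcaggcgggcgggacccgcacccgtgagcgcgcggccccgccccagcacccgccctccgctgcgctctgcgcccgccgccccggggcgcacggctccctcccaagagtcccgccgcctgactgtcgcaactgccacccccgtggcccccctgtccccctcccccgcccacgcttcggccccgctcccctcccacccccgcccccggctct
Dkk2: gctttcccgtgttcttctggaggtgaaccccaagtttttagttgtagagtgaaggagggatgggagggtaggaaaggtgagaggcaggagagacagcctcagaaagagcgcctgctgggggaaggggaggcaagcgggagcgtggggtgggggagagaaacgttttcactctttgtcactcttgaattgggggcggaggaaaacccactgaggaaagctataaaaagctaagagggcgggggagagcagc
Wnt5b: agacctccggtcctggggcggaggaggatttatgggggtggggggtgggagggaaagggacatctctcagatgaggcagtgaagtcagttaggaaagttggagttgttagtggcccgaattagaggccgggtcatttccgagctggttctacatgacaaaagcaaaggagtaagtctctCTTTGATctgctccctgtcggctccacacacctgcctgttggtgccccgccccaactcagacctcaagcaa

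Among the receptors, Fzd10 had the largest difference. It was at 0.153, 0.135 and 0.0815 FPKM in Control, at 21.8, 4.21 and 2.75 FPKM in IgG and at 0.373, 0.0884 and 0.0686 FPKM in anti-A9. All IgG samples were above the other 6, and replicate 1 was the highest. Fzd10 rose by 4.87 (log2 difference, SE 0.72, adjusted p = 0.0051) in IgG against Control, 29.2-fold on the FPKM + 0.1 scale, and was 4.71 lower on the log2 scale in anti-A9 than in IgG (log2 difference -4.71, SE 0.72, adjusted p = 0.0072). Without IgG replicate 1 the log2 differences were 3.99 (adjusted p = 0.0030) in IgG against Control and -3.83 (adjusted p = 0.0050) in anti-A9 against IgG, and without IgG replicate 3 they were 5.46 (adjusted p = 0.0066) and -5.30 (adjusted p = 0.0099). Fzd10 held a small part of the receptor transcripts in Control, and the 10 Frizzled genes summed to 46.5, 52.8 and 33.6 FPKM in Control, 74.8, 49.3 and 45.7 FPKM in IgG and 59.7, 59.9 and 53.0 FPKM in anti-A9.

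Fzd9 was at 0.114, 0.200 and 0.112 FPKM in Control, at 1.10, 0.534 and 0.326 FPKM in IgG and at 0.183, 0.145 and 0.276 FPKM in anti-A9. The IgG samples again lay above the rest. It rose in IgG against Control (log2 difference 1.52, SE 0.40, adjusted p = 0.043), but this call was lost without any of the 9 libraries except IgG replicate 3 (log2 difference 1.12 to 1.69). The replicate block, which treats same-numbered samples as a set, gave an adjusted p of 0.068. From IgG to anti-A9 its log2 difference was -1.21 (adjusted p = 0.060), -1.56 (adjusted p = 0.043) without IgG replicate 3 and -0.81 (adjusted p = 0.12) without IgG replicate 1.

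Fzd5 and Fzd7, among the most abundant receptors, followed another order. Fzd5, a receptor of the crypt epithelium, was at 12.5, 12.0 and 6.63 FPKM in Control, at 4.80, 8.91 and 6.28 FPKM in IgG and at 12.0, 16.0 and 13.7 FPKM in anti-A9. Fzd7, a receptor of intestinal stem cells, was at 7.53, 9.11 and 5.21 FPKM in Control, at 5.10, 5.89 and 6.38 FPKM in IgG and at 9.35, 10.0 and 8.96 FPKM in anti-A9. For both, every anti-A9 sample was above every IgG sample. Fzd5 was higher in anti-A9 than in IgG by 1.08 (log2 difference, SE 0.29, adjusted p = 0.034) and Fzd7 by 0.70 (SE 0.21, adjusted p = 0.045). Each call was lost without IgG replicate 1 (0.87 and 0.61, adjusted p = 0.088 and 0.10), without IgG replicate 3 or without any anti-A9 library, and that of Fzd7 also without Control replicate 1 or IgG replicate 2 and with the replicate block (adjusted p = 0.052). Over these the log2 difference ran from 0.87 to 1.18 for Fzd5 and from 0.61 to 0.77 for Fzd7.

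Fzd1, the most abundant Frizzled, was at 11.3, 11.3 and 7.02 FPKM in Control, at 23.9, 15.5 and 12.5 FPKM in IgG and at 15.9, 14.6 and 15.1 FPKM in anti-A9. Both AOM/DSS groups lay above Control, with log2 differences of 0.78 (adjusted p = 0.087) and 0.65 (adjusted p = 0.30). Fzd2, Fzd3, Fzd4, Fzd6 and Fzd8 passed the adjusted threshold in no comparison. Fzd8 was lower in all IgG samples (1.92 to 2.99 FPKM) than in all Control samples (3.39 to 4.11 FPKM), with a log2 difference of -0.59 (adjusted p = 0.10). Fzd6 differed by 0.85 (adjusted p = 0.15) in IgG against Control and by -0.82 (adjusted p = 0.12) in anti-A9 against IgG, by 1.21 (adjusted p = 0.035) and -1.18 (adjusted p = 0.031) without IgG replicate 2, and by 0.48 (adjusted p = 0.35) and -0.44 (adjusted p = 0.29) without IgG replicate 1.

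The co-receptors Lrp5 and Lrp6, which together with a Frizzled form the receptor for the β-catenin branch, differed in their order of groups. Lrp6 was at 15.0, 14.1 and 8.67 FPKM in Control, at 11.4, 10.0 and 6.13 FPKM in IgG and at 18.4, 19.1 and 19.5 FPKM in anti-A9. Every anti-A9 sample was above the other 6. Lrp6 was higher in anti-A9 than in IgG (log2 difference 1.09, SE 0.27, adjusted p = 0.026), a call that was lost without IgG replicate 3 or any anti-A9 library (0.82 to 1.11, adjusted p = 0.061 to 0.084). Lrp5 was at 8.15, 6.96 and 5.06 FPKM in Control, at 13.0, 7.81 and 10.6 FPKM in IgG and at 7.92, 7.94 and 8.27 FPKM in anti-A9. Its log2 difference in IgG against Control was 0.63 (adjusted p = 0.11), 0.82 (adjusted p = 0.045) without IgG replicate 2 and 0.46 (adjusted p = 0.27) without IgG replicate 1.

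R-spondins were led by Rspo3, the stromal R-spondin of the colon crypt. Rspo3 was at 3.49, 6.09 and 4.06 FPKM in Control, at 1.33, 2.56 and 7.19 FPKM in IgG and at 8.64, 7.91 and 5.49 FPKM in anti-A9. The IgG samples spanned the range of the Control samples on both sides. Rspo3 in anti-A9 against IgG differed by 1.27 (adjusted p = 0.11), by 1.91 (adjusted p = 0.023) without IgG replicate 3 and by 0.73 (adjusted p = 0.26) without IgG replicate 1.

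Rspo2 was far lower, at 0.0799, 0.124 and 0.129 FPKM in Control, 0.0292, 0.141 and 0.0840 FPKM in IgG and 0.336, 0.256 and 0.232 FPKM in anti-A9. Every anti-A9 sample was above the other 6, and Rspo2 was higher in anti-A9 than in IgG by 1.06 (log2 difference, SE 0.31, adjusted p = 0.041). That call was lost without any of the libraries except Control replicate 3 and IgG replicate 2, with a log2 difference of 0.82 to 1.14, and with the replicate block (adjusted p = 0.059). Rspo1 was at 0.125, 0.469 and 0.526 FPKM in Control, at 0.453, 1.80 and 1.32 FPKM in IgG and at 1.34, 0.982 and 0.769 FPKM in anti-A9. Its log2 difference in IgG against Control was 1.41 (adjusted p = 0.12), 1.93 (adjusted p = 0.046) without IgG replicate 1 and 0.94 (adjusted p = 0.30) without Control replicate 1. Rspo4 was at most 0.235 FPKM, in IgG replicate 1.

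The SFRPs varied more between the IgG mice than between groups. Sfrp1 was at 8.499, 14.3 and 7.88 FPKM in Control, at 6.28, 48.4 and 37.9 FPKM in IgG and at 16.0, 16.8 and 13.0 FPKM in anti-A9. Sfrp2 was at 9.41, 19.99 and 15.0 FPKM in Control, at 1.72, 33.4 and 7.99 FPKM in IgG and at 18.1, 16.7 and 13.97 FPKM in anti-A9. IgG replicate 1 was the lowest of the 9 samples in both genes, and IgG replicate 2 was the highest.

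None of the 5 passed the adjusted threshold. Sfrp1 differed by 1.19 (adjusted p = 0.26) in IgG against Control with all samples and by 2.11 (adjusted p = 0.0040) without IgG replicate 1, when it was also lower in anti-A9 than in IgG (-1.49, adjusted p = 0.018). The log2 difference of Sfrp2 in IgG against Control was -0.85 (adjusted p = 0.54) and turned to 0.21 (adjusted p = 0.85) without that library, and in anti-A9 against IgG it was 1.04 (adjusted p = 0.38), or 2.09 (adjusted p = 0.036) without IgG replicate 2. Frzb was at 2.66, 2.55 and 2.61 FPKM in Control, at 2.42, 4.27 and 4.96 FPKM in IgG and at 6.61, 4.70 and 3.63 FPKM in anti-A9. Sfrp4 ranged from 0.192 to 15.2 FPKM, being highest in IgG replicate 2, and was at 1.26, 0.192 and 2.35 FPKM in Control, 0.889, 15.2 and 2.20 FPKM in IgG and 2.57, 2.60 and 2.14 FPKM in anti-A9. Sfrp5 ranged from 0.502 FPKM in IgG replicate 1 to 3.69 FPKM in IgG replicate 2.

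Within IgG the fibroblast marker sums had the same order of replicates as the SFRP sums. Col1a1, Col1a2 and Col3a1 carried most of that order (68.6, 489 and 358 FPKM for Col1a1). Pdgfra was instead highest in replicate 1 (14.6, 9.96 and 14.0 FPKM), and the other markers were lowest there. IgG replicate 1 was above all Control samples in the marker sum and below them all in the SFRP sum. The 8 markers summed to 507 to 574 FPKM in Control, 653, 2181 and 1604 FPKM in IgG and 637 to 845 FPKM in anti-A9, and the SFRPs to 22.6, 39.4 and 30.2 FPKM, 11.8, 105 and 55.2 FPKM, and 46.3, 42.7 and 33.6 FPKM. Of the 8 markers, 4 were higher in IgG than in Control, among them Col1a1, and 3 were lower in anti-A9 than in IgG, each of these calls being lost without at least 1 library. None was at 0 in all samples, and the 6 smooth muscle markers summed to 518, 1087 and 3251 FPKM in the IgG samples, against 1801 to 2857 FPKM in Control and 2246 to 4074 FPKM in anti-A9. The part of tissue makeup in these levels was not tested.

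Dkk2, an inhibitor that binds Lrp5 and Lrp6, had the smallest adjusted p of the 36 members. It was at 0.235, 0.231 and 0.137 FPKM in Control, at 16.4, 8.04 and 7.27 FPKM in IgG and at 0.465, 0.179 and 0.225 FPKM in anti-A9. The IgG samples lay far above the rest and closer to each other than for Wnt6, Wnt10a or Fzd10. Dkk2 rose by 5.07 (log2 difference, SE 0.39, adjusted p = 0.00036) in IgG against Control, 33.5-fold on the FPKM + 0.1 scale, and was lower in anti-A9 than in IgG (log2 difference -4.74, SE 0.39, adjusted p = 0.0010). Without IgG replicate 1 the former was 4.70 (adjusted p = 0.00079).

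Dkk3, a divergent family member, was the most abundant of all 44 genes over the 9 samples. It was at 17.1, 21.2 and 15.0 FPKM in Control, at 96.5, 28.7 and 41.7 FPKM in IgG and at 26.1, 22.8 and 22.5 FPKM in anti-A9. Its groups overlapped in no comparison, with IgG highest and Control lowest. Dkk3 rose in IgG against Control (log2 difference 1.46, SE 0.38, adjusted p = 0.040), or by 0.97 (adjusted p = 0.029) without IgG replicate 1. The call was lost without any of the Control or anti-A9 libraries or IgG replicate 3 (1.35 to 1.60, adjusted p = 0.065 to 0.11). Between anti-A9 and IgG it differed by -1.04 (adjusted p = 0.078), by -1.42 (adjusted p = 0.021) without IgG replicate 2 and by -0.54 (adjusted p = 0.11) without IgG replicate 1. Dkk4, another LRP-binding inhibitor, was listed at 0 in the Control samples, at 0.109, 0 and 0.0712 FPKM in IgG and at 0, 0 and 0.0310 FPKM in anti-A9.

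**Figure D4:**
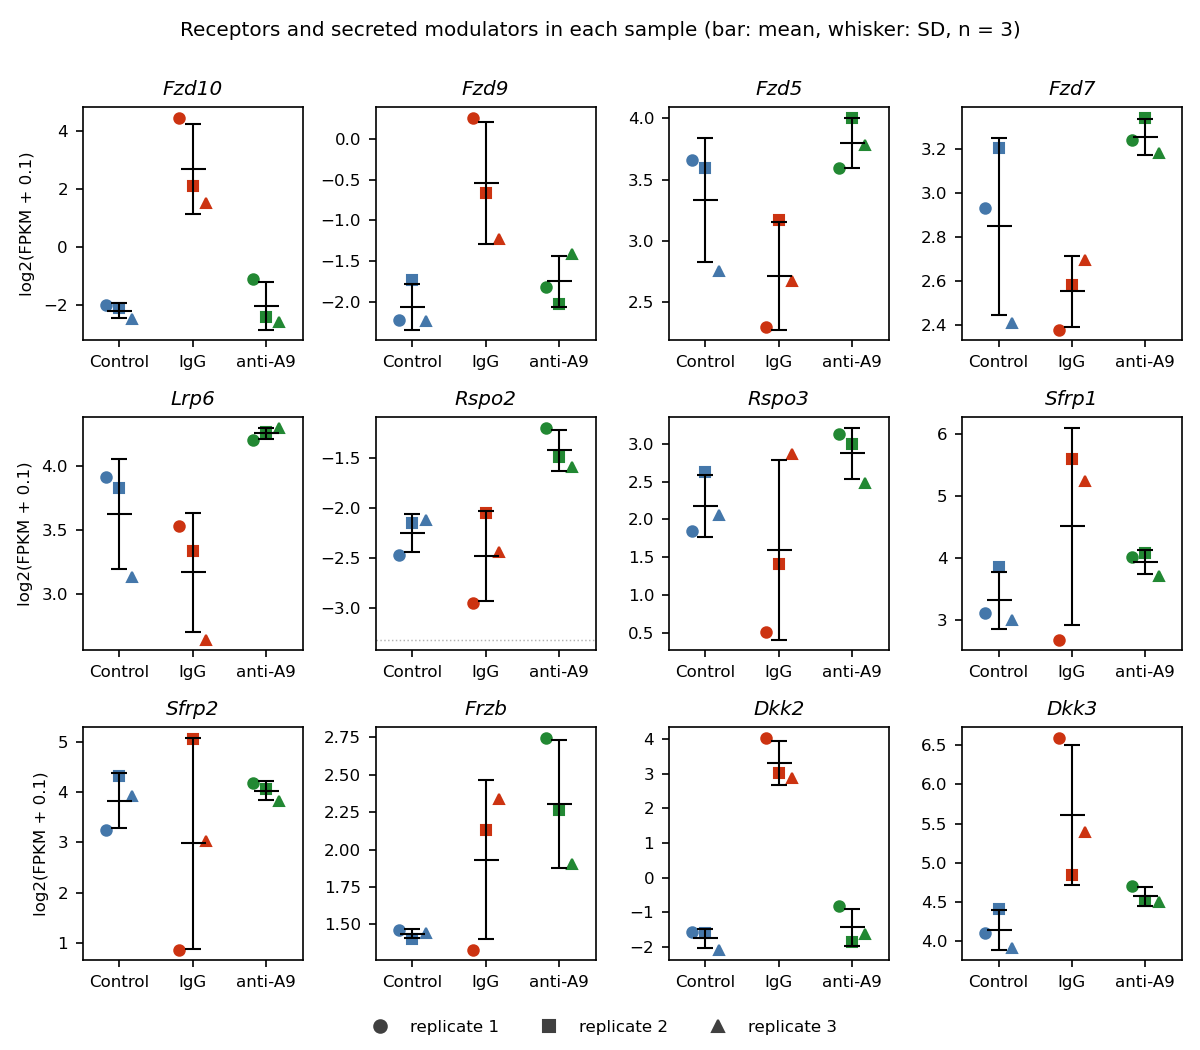
log2(FPKM + 0.1) of 12 receptors and secreted modulators in each sample (points, with a symbol for each replicate number), with the group mean (bar) and SD (whisker, n = 3); the dotted line marks a value listed at 0. The IgG points stand above both other groups for Fzd10, Fzd9, Dkk2 and Dkk3, and IgG replicate 1 is the lowest point for Sfrp1 and Sfrp2.

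Over the whole set, 9 of the 36 tested members were higher in IgG than in Control at an adjusted p under 0.05 (Wnt3, Wnt5a, Wnt6, Wnt7b, Wnt10a, Fzd9, Fzd10, Dkk2 and Dkk3), against 8.18% of all genes tested. Leaving out Wnt3, Wnt7a and Wnt7b, which passed the filter only through IgG, 7 of 33 were higher. None was lower by limma, against 3.01% of all genes, and at an unadjusted p under 0.05 there were 18 higher and 2 lower, against 29.5% of all genes in either direction. By family the 9 were 5 of 14 ligands, 2 of 10 Frizzled receptors and both Dickkopf genes tested, with no co-receptor, R-spondin or SFRP. The 5 ligands include Wnt3 and Wnt7b. The median log2 difference was 0.82 over the members and 0.094 over all genes tested. By the study's own thresholds, which ask for a change over 2-fold with p under 0.05 before adjustment, 13 members were higher and none lower, against 8.43% and 5.19% of all genes. Wnt3, Wnt6, Wnt7b, Wnt10a, Fzd10 and Dkk2 passed the adjusted threshold under all alternatives that tested them. A filter of a mean of at least 1 FPKM left out Wnt3 and Wnt7b, whose tests stand as descriptions. The count of 9 became 12 without IgG replicate 1, 11 without IgG replicate 2 and 6 without any of the Control libraries.

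In anti-A9 against IgG, 8 members were lower (Wnt3, Wnt5b, Wnt6, Wnt7a, Wnt7b, Wnt10a, Fzd10 and Dkk2), against 14.4% of all genes tested, and 5 were higher (Wnt2b, Fzd5, Fzd7, Lrp6 and Rspo2), against 6.72%. Leaving out Wnt3, Wnt7a and Wnt7b, 5 of 33 were lower. The median log2 difference was -0.34 over the members and -0.060 over all genes. At an unadjusted p under 0.05, 7 members were higher and 11 lower, against 39.1% of all genes in either direction, and the study's thresholds gave 5 higher (7.64% of all genes) and 10 lower (8.38%). The same 6 members that held in IgG against Control passed under all alternatives that tested them here, with Wnt3 and Wnt7b again as descriptions. Because the IgG samples enter both comparisons, the fall in one is not independent of the rise in the other. The count of 5 higher members fell to 2 without IgG replicate 1 or 3, to 1 without anti-A9 replicate 1 or 3, to 0 without anti-A9 replicate 2 and to 3 without Control replicate 1 or with the replicate block.

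No member passed the adjusted threshold in limma between anti-A9 and Control, where 0.00655% of all genes were higher and 0.00655% lower. At an unadjusted p under 0.05, 8 members were higher (Wnt2, Wnt2b, Wnt5a, Fzd1, Lrp6, Rspo1, Rspo2 and Frzb) and none lower, against 16.0% of all genes in either direction. Their log2 differences ran from 0.63 for Lrp6 to 1.36 for Rspo1, with adjusted p of 0.30 to 0.31. By the study's thresholds Wnt2, Wnt2b and Rspo1 were higher, against 2.28% of all genes, and none was lower, against 0.864%. Of the 36 members, 33 had a positive difference, with a median of 0.36 against 0.039 over all genes.

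**Figure D5:**
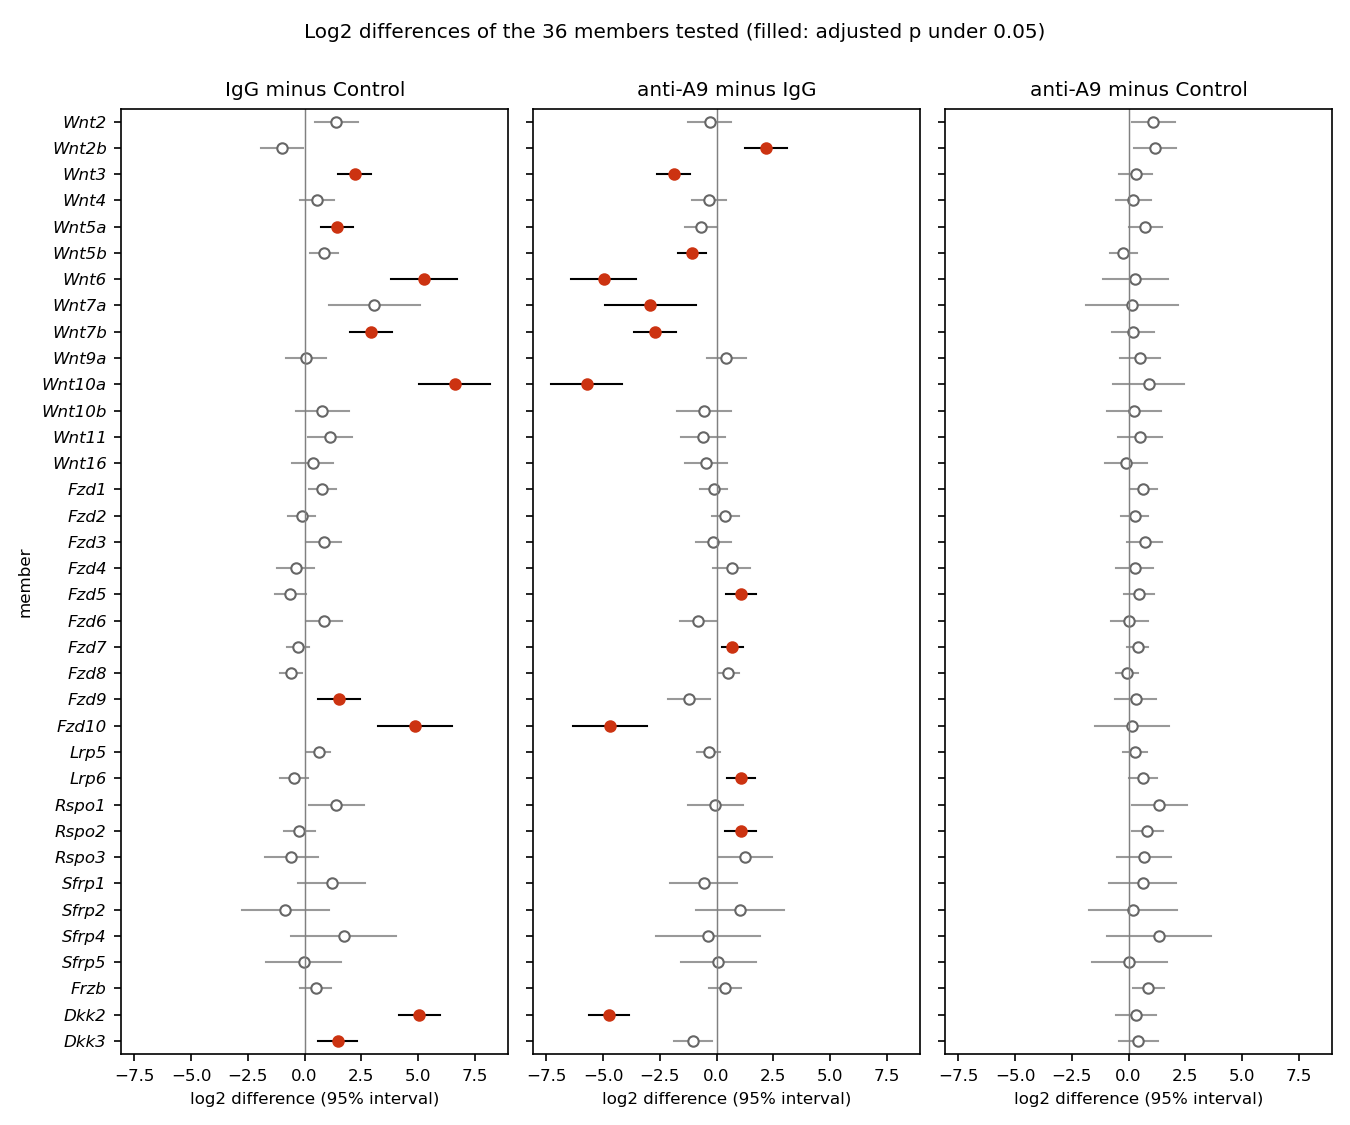
Log2 difference of the 36 tested members with its 95% interval in the 3 comparisons; filled points have an adjusted p under 0.05. Filled points number 9 in IgG minus Control, all above 0, 13 in anti-A9 minus IgG and 0 in anti-A9 minus Control.

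All 3 IgG samples were above all other 6 samples in 12 members, of which 10 were tested (Wnt3, Wnt5b, Wnt6, Wnt7a, Wnt7b, Wnt10a, Fzd9, Fzd10, Dkk2 and Dkk3), against 15.3% of all genes tested, or in 7 of 33 without Wnt3, Wnt7a and Wnt7b. Wnt8b and Wnt9b, which did not pass the filter, were the others. In IgG against Control the groups did not overlap in 14 tested members that were higher (20.7% of all genes) and in Fzd8, which was lower (10.2%). In anti-A9 against IgG this held for 6 higher (18.5%) and 10 lower (28.5%), and in anti-A9 against Control for 9 higher (17.3%) and for Wnt5b, which was lower (13.7%).

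Genes that handle the ligand and its receptor were taken as lists. Wls, which carries lipid-bearing Wnts to the surface, rose (log2 difference 0.82, adjusted p = 0.025), and Porcn, which adds the lipid, did not pass. Of the 5 R-spondin receptors and Frizzled-removing ligases, 4 were higher in IgG than in Control: Lgr5 (3.11, adjusted p = 0.033), Lgr6 (4.27, adjusted p = 0.0080), Rnf43 (2.44, adjusted p = 0.0080) and Znrf3 (1.89, adjusted p = 0.032). Lgr5, Lgr6 and Rnf43 were lower in anti-A9 than in IgG, and Lgr4 was higher (0.86, adjusted p = 0.036). Lgr5 without IgG replicate 1 differed by 2.52 (adjusted p = 0.087) in IgG against Control and by -3.26 (adjusted p = 0.037) in anti-A9 against IgG, and Lgr6 by 3.38 (adjusted p = 0.0037) and -2.98 (adjusted p = 0.0080). The Lgr5 call in IgG against Control was lost without any library but IgG replicate 2.

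Wif1, Notum and Apcdd1, which also inhibit Wnt signaling, had differences as large as those of the ligands. Wif1, which binds Wnts, was at 1.83, 1.23 and 2.59 FPKM in Control, at 657, 142 and 143 FPKM in IgG and at 9.26, 3.70 and 0.866 FPKM in anti-A9. Notum, which removes the lipid of Wnts, was at 0.189, 0.0261 and 0.334 FPKM in Control, at 255, 45.0 and 65.3 FPKM in IgG and at 3.22, 0.397 and 0.0628 FPKM in anti-A9. Their log2 differences in IgG against Control were 6.96 (adjusted p = 0.0021) and 8.5004 (adjusted p = 0.0026), and that of Apcdd1, a membrane inhibitor, was 6.22 (adjusted p = 0.0016). All 3 were lower in anti-A9 than in IgG, at -6.19, -7.14 and -5.39. Without IgG replicate 1 the differences of Wif1, Notum and Apcdd1 were 6.23, 7.76 and 5.42 in IgG against Control and -5.46, -6.40 and -4.58 in anti-A9 against IgG (adjusted p = 0.0016 to 0.017). In the latter comparison Wif1 ran from -6.95 without anti-A9 replicate 1 to -5.32 without anti-A9 replicate 3, and Notum from -8.32 to -6.15. Gpc3 was higher in anti-A9 than in IgG (1.70, adjusted p = 0.049), a call lost without any library but IgG replicate 2. Wif1, Notum and Apcdd1 were the genes called higher in IgG than in Control among the 9 tested of that list.

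Of 11 receptors and polarity genes of the β-catenin-independent branch, Vangl2 (2.26), Ptk7 (1.90) and Celsr1 (1.07) were higher in IgG than in Control and lower in anti-A9 than in IgG, and Ror1, Ror2 and Ryk, receptors for Wnt5a, did not pass in either. Of 16 cytoplasmic genes, Nkd1 (3.57), Axin2 (3.03) and Csnk1e (1.51) were higher in IgG than in Control. Axin2 and Nkd1 are feedback inhibitors and common targets of the β-catenin branch. These 3 and Gsk3a (-0.44, adjusted p = 0.029) were lower in anti-A9 than in IgG, and Nkd2 (1.42, adjusted p = 0.011) and Apc2 (1.15, adjusted p = 0.030) were higher. Of 11 nuclear genes, Lef1 (2.65), Tle1 (1.08) and Tle3 (0.95) were higher and Tcf7l1, a repressor of the same family, was lower (-1.52, adjusted p = 0.0023). In anti-A9 against IgG, Lef1 (-2.50), Tle1 (-0.88), Tle3 (-0.78) and Pygo2 (-0.51) were lower and Tcf7l1 (0.78) was higher. Ctnnb1, the gene of β-catenin, had a log2 difference of 0.63 (adjusted p = 0.13) in IgG against Control and of -0.54 (adjusted p = 0.14) in anti-A9 against IgG, and Apc one of 0.0018 (adjusted p = 0.998) and of 0.68 (adjusted p = 0.12).

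In the order given above, these pathway lists held 2, 5, 9, 11, 16 and 11 tested genes. Over them, 18 genes were called in IgG against Control, all higher but Tcf7l1. Of all genes tested, 8.18% were higher and 3.01% lower. Of the 18, 11 kept the call without each of the 9 libraries in turn. Lgr5 lost it without 8 of them, Znrf3 and Lef1 without 6, Wls and Tle3 without 5 and Vangl2 and Tle1 without 2. In anti-A9 against IgG 22 were called, all lower but Lgr4, Gpc3, Nkd2, Apc2 and Tcf7l1, where 6.72% of all genes tested were higher and 14.4% lower. Of the 22, 6 kept the call (Wif1, Notum, Apcdd1, Rnf43, Nkd1 and Nkd2). Axin2, Nkd1 and Vangl2 without IgG replicate 1 differed by 2.41, 2.92 and 1.66 in IgG against Control and by -1.74, -2.54 and -1.25 in anti-A9 against IgG (adjusted p = 0.0011 to 0.046).

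Other cell types also differed between the groups. The 8 squamous epithelium markers summed to 1.81 to 3.63 FPKM in Control, 51.5, 9.22 and 32.0 FPKM in IgG and 2.76 to 4.05 FPKM in anti-A9, and 4 of the 6 tested were higher in IgG than in Control, led by Krt14, though the calls of Krt4, Krt13 and Krt14 were lost without Control replicate 2, while Trp63 was at no more than 0.0223 FPKM. The 6 neutrophil markers summed to 90.7 to 121 FPKM in Control, 134, 449 and 685 FPKM in IgG and 102 to 179 FPKM in anti-A9, with IgG replicate 1, the highest sample for Wnt6, Wnt10a, Fzd10 and Dkk2, the lowest of its group. Ly6g made up most of the sums in Control and anti-A9 and differed by -0.74 in IgG against Control (adjusted p = 0.33). The other 5 were called higher in IgG than in Control, Retnlg not without Control replicate 1 or IgG replicate 3. S100a9 was at 0.370 to 0.859 FPKM in Control, 63.1, 173 and 267 FPKM in IgG and 5.54 to 11.6 FPKM in anti-A9. The 4 mesothelium markers summed to 1.14 to 3.18 FPKM, 9.0003 to 14.1 FPKM and 0.492 to 4.05 FPKM in the 3 groups, and the 6 adipocyte markers to 77.8 to 278 FPKM, 9.92 to 46.3 FPKM and 19.5 to 36.8 FPKM. The 6 neuron and glia markers summed to 8.85 to 23.4 FPKM, 8.45 to 19.5 FPKM and 14.7 to 20.4 FPKM. Endothelium, macrophage, T cell and B and plasma cell lists had no gene with an adjusted or an unadjusted p under 0.05 in IgG against Control by limma. Cd4, of the T cell list, was higher in anti-A9 than in IgG (log2 difference 2.26, adjusted p = 0.016), a call lost without anti-A9 replicate 2 or 3 (adjusted p up to 0.053). Ms4a1 (3.45) and Cd79a (2.23), of B cells, Adgre1 (1.05), of macrophages, and Tek (0.86), of endothelium, had in that comparison unadjusted p of 0.019 to 0.049 and adjusted p of 0.070 to 0.13. Their part in the differences of the Wnt genes was not tested.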

How the data were processed

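Colorectal RNA of 9 mice was sequenced, 3 per group. The authors deposited 1 file per mouse of 21544 rows, each with a gene symbol and a value. Its unit is given nowhere, and the deposited values have the form of FPKM, being decimal with totals of 308377 to 408811. The submitters' processing notes name TopHat, Cufflinks, HTSeq, DESeq and GRCm38, without versions. Steps between low values place the depth of the samples at 0.847 to 1.11 of that of Control replicate 1. The absolute depth is not known, so no counting error is given, and precision comes from the 3 mice per group.

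Values of the 46 repeated symbols were summed, leaving 21498. The 15278 genes that reached 0.1 FPKM in 3 or more samples were compared on log2(FPKM + 0.1) with limma 3.58.1 in R 4.3.3, fitted to all 9 samples with group as the only term and an intensity trend (8.87 degrees of freedom), and p-values were adjusted by the Benjamini-Hochberg method. The authors' count test was not repeated, since no counts were used here. The fit was tested on simulated data in which 200 of the 15278 genes differed by a log2 of 3 between IgG and Control. It recovered 89.5% of them and called 14 unchanged genes, and 5.14% of the unchanged had p under 0.05 before adjustment. The noise was drawn independently for each gene and sample, and called members such as Fzd5, Fzd7 and Lrp6 differed by less than the planted amount. The recovery therefore does not apply to such members, nor to a sample that deviates in many genes at once.

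The members, pathway lists and marker lists were chosen with earlier results of these data known, and the lists are not independent evidence. Values in every sample are given for members with an adjusted p under 0.05 in any comparison and for the 3 most abundant of each family. Wnt8b, Wnt9b, Dkk4, Wnt2, Fzd6 and Fzd8 were singled out after their values were seen. Of a pathway list, called genes are named where there are at most 6, and other genes of it, and the marker genes named, were chosen after their values were seen. Gene positions are from GENCODE M21 (GRCm38), which names 97.5% of the symbols. Promoter sequences are from RefSeq on GRCm38.p6. Wnt10a, Wnt7b and Dkk3 had no entry. Alternatives covered the pseudocount, the filter, the scaling, the trend, the groups in the fit, a replicate block and leaving out each sample. Tables were made in Python 3.11.15 (pandas 2.3.3, numpy 2.4.6), and matplotlib 3.10.9 drew the figures.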

Additional observations from a re-analysis of the deposited data

How the results depend on the processing

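Of the 22 member differences with an adjusted p under 0.05, 12 kept their side of the threshold under all of the 18 alternatives that tested them, and none of the 22 changed sign. They were those of Wnt3, Wnt6, Wnt7b, Wnt10a, Fzd10 and Dkk2 in IgG against Control and in anti-A9 against IgG. Those of Wnt3 and Wnt7b remain descriptions. Except for the fit with no filter, each alternative that tested them kept the filter that they passed only through IgG. The other 10 were lost under at least 1 alternative. Apart from left-out samples and the replicate block, Dkk3 in IgG against Control was lost with no filter, no trend, quantile normalization or only the 2 groups, Fzd9 with a pseudocount of 1, quantile normalization or only the 2 groups, and Wnt5a with only the 2 groups. In anti-A9 against IgG, Wnt7a was lost with a pseudocount of 1, no filter, no trend, either scaling or only the 2 groups, Fzd7 with no filter or no trend, and Rspo2 with a pseudocount of 0.01 or only the 2 groups. Among the differences printed without a call, that of Sfrp2 in IgG against Control changed sign, to 0.21 without IgG replicate 1, and ran down to -1.89 without IgG replicate 2. With 3 mice per group and 8.87 degrees of freedom, smaller differences may not be detected, and the cause of the changes below was not tested unless stated.

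Members past the study's thresholds in IgG against Control numbered 6 with a pseudocount of 1, which shrinks low genes, and 6 with a mean of at least 1 FPKM, which tests 24 members. With a mean of at least 1 FPKM, members lower in anti-A9 than in IgG numbered 5, and those past the study's thresholds in anti-A9 against Control numbered 1. With a pseudocount of 1 the study's thresholds gave 8 members in anti-A9 against IgG and 0 in anti-A9 against Control. Fitting only the 2 groups compared called 9 pathway genes higher in IgG than in Control, and 502 genes higher and 101 lower among all tested, against 1250 and 460. Median-of-ratios scaling and quantile normalization moved the median of all genes in IgG against Control from 0.094 to -0.0092 and -0.030, and the share of higher calls from 73.1% to 65.2% and 60.01%. In anti-A9 against IgG that share moved from 31.9% to 41.2% and 44.9%, and with only the 2 groups it was 83.3% in IgG against Control.

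Without each sample in turn, members higher in IgG than in Control numbered 6 to 12, lower 0 to 1 and past the study's thresholds 12 to 15. In anti-A9 against IgG they numbered 0 to 5 higher, 6 to 11 lower and 10 to 17, and in anti-A9 against Control 0 to 0, 0 to 0 and 1 to 4. Pathway genes numbered 10 to 18 higher and 1 to 2 lower in IgG against Control, 1 to 6 higher and 5 to 19 lower in anti-A9 against IgG. Counts over all genes in anti-A9 against IgG fell to 92 higher and 431 lower without anti-A9 replicate 2.

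Same-numbered samples deviated from their group means with correlations of -0.19 to 0.25 over 9 pairs, 5 of them over 0.1, so that the replicate numbers were not taken as a pairing. With the replicate block, members higher in anti-A9 than in IgG numbered 3, Fzd7, Rspo2 and Fzd9 were lost, Wnt7a was called in IgG against Control (adjusted p = 0.048), and no other member changed its side of the threshold.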
